A study of Homo sapiens with 6 samples.

Results

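The 9 genes described here encode the angiotensin II type 1 receptor and the ion channels and pump that set the membrane voltage and calcium entry of aldosterone-producing cells. They are AGTR1, the potassium channels KCNJ5, KCNK2, KCNK3 and KCNK9, the calcium channels CACNA1D and CACNA1H, the calcium pump ATP2B3 and the chloride channel CLCN2. They were chosen by name, with earlier results of these data known. All 9 were found among the 57341 genes of the count table and passed the filter on low counts. At an adjusted p under 0.05, 2 were higher in the H295R-PM-Ptc+-labelled than in the H295R-labelled libraries (AGTR1 at 1.61-fold and ATP2B3 at 1.41-fold) and 0 were lower, where 3.73% of all tested genes were called. When the replicate number was taken as a block, KCNK3 was also called higher and CACNA1D and CACNA1H lower, so that 5 of 9 passed, where 22.5% of all tested genes did.

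Zona glomerulosa cells of the adrenal cortex are held at a negative voltage by potassium channels. Angiotensin II, acting on its receptor, and plasma potassium depolarize these cells, voltage-gated calcium channels open, and the calcium that enters drives the transcription of the aldosterone synthase gene CYP11B2. Mutations of KCNJ5, CACNA1D, CACNA1H, ATP2B3 and CLCN2 are known in aldosterone-producing adenomas or in familial hyperaldosteronism.

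RNA was sequenced from 3 replicates of H295R, a human adrenocortical carcinoma line that makes steroids, and from 3 replicates of H295R-PM-Ptc+, the cells of that line that carried the Hedgehog receptor Ptch1 at the plasma membrane, which were sorted and amplified. Both were grown in the same DMEM/F12 medium with NuSerum and ITS+, and neither was treated. The data therefore describe 1 cell line and 1 sorted population of it, and the sources used here do not say whether replicates were separate cultures, so the p-values measure the spread between these libraries, which may be technical. In bulk RNA, fewer cells with a transcript and less of it per cell cannot be told apart.

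The libraries held between 23264403 and 25813247 counts on genes. PTCH1, the gene by whose protein the cells were sorted (chr9:95442980-95517057 in hg38), goes against the labels. It had 441, 559 and 579 counts in the H295R-labelled libraries and 248, 326 and 319 in the H295R-PM-Ptc+-labelled libraries (log2 fold change -0.81, standard error 0.147, edgeR adjusted p = 0.0207). The normalised values that accompany the study carry the 2 group names the other way round than the deposited counts do. The counts alone do not settle which names are right. Libraries are therefore called by the deposited labels, and every direction below is that of the H295R-PM-Ptc+-labelled relative to the H295R-labelled libraries. If the deposited names are exchanged, every one of these directions is reversed for the cells themselves. All 11 adrenocortical markers, among them NR5A1 and STAR, passed the filter on low counts. Their summed level was 1736 to 2087 CPM (counts scaled to library size) in the H295R-labelled libraries and 2303 to 2555 CPM in the H295R-PM-Ptc+-labelled libraries, with CYP21A2 (log2 fold change 0.88, adjusted p = 0.0067) and SCARB1 (0.63, adjusted p = 0.00345) higher. SCARB1 alone had 19363 to 21044 counts in the first group and 30353 to 31275 in the second, while 5 of the 11 lay below 0, the median log2 fold change was 0.01, and with the block 3 were called higher, among them STAR (0.41, adjusted p = 0.346, with the block 3.91e-06), and 1 lower, CYP11A1 (-0.25, adjusted p = 0.391, with the block 0.001). DBH, PNMT and SLC18A1 of the 7 chromaffin markers had no counts and TH at most 2, and the list summed to 65.2 to 76.7 against 51.5 to 61.2 CPM, nearly all of it CHGB. The 7 fibroblast markers summed to 30.7 to 33.5 against 73.8 to 78.1 CPM, mostly COL3A1 (log2 fold change 1.51, adjusted p = 0.000131), with LUM at 0 and DCN at up to 5 counts. The 5 endothelial markers summed to 0.197 to 0.335 against 0.509 to 0.648 CPM, and 0 of them passed the filter on low counts. The 6 leukocyte markers summed to 0.607 to 1.14 against 1.06 to 1.29 CPM, with PTPRC at 0. The part of these marker differences in the results below was not tested.

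The 9 genes spanned almost the whole range of expression in these cells. Divided by exon length, the TASK-1 potassium channel gene KCNK3 was the most abundant at a mean of 102 CPM per kb over the 6 libraries, above 98% of the tested genes. KCNJ5 followed at 19.4, CACNA1D at 10.3, AGTR1 at 6.88, KCNK2 at 4.98, CACNA1H at 4.2, CLCN2 at 3.42, ATP2B3 at 1.06 and KCNK9 at 0.159 CPM per kb, the last above only 4.13% of the tested genes. KCNK3, KCNJ5, ATP2B3 and KCNK9 were each separated from their neighbours in this order in every library. From CACNA1D down to CLCN2, the ranges of successive genes over the 6 libraries overlapped.

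**Figure D1:**
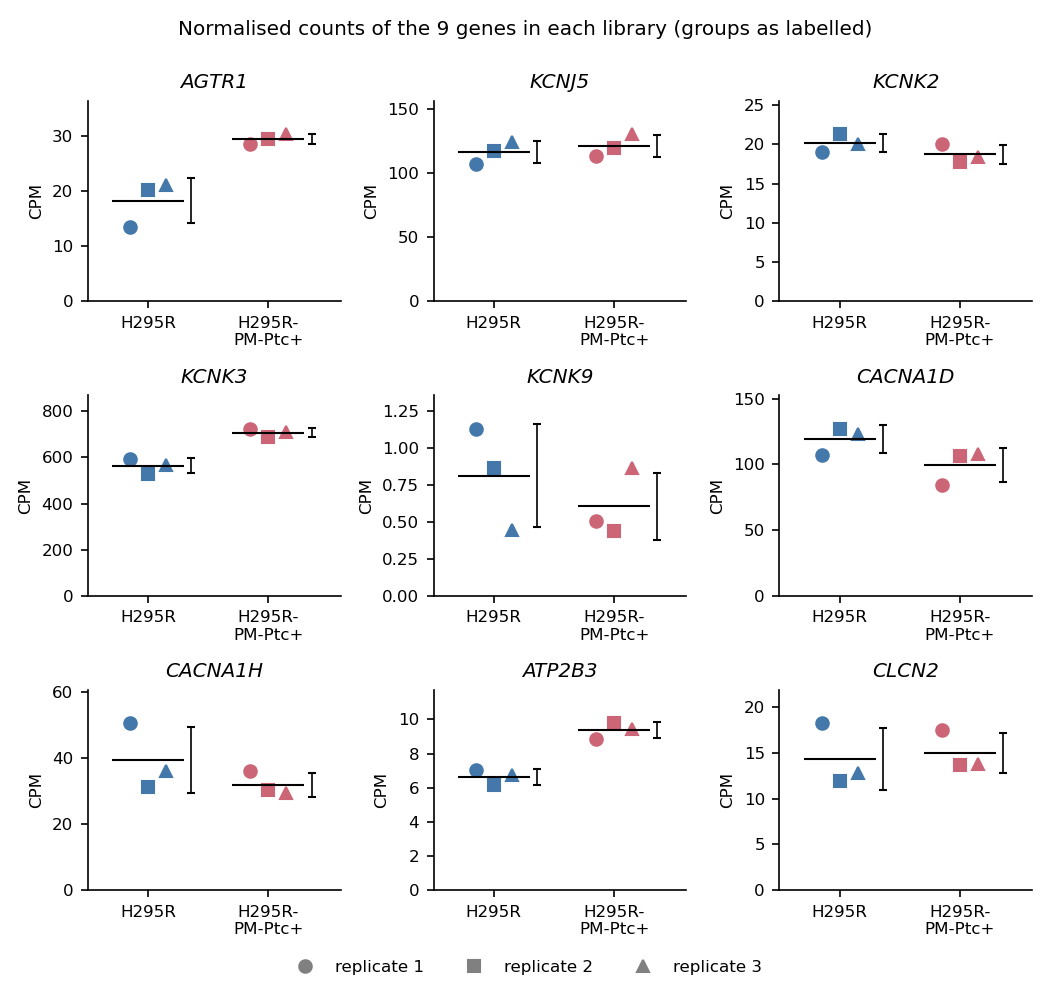
Normalised counts (CPM, each axis from 0) of the 9 genes in the 6 libraries, with 1 panel per gene, the groups as labelled on the x axis and 1 point per library whose shape gives the replicate number. Horizontal lines are means and vertical bars are ± 1 SD (n = 3). The 2 sets of points do not overlap for AGTR1, KCNK3 and ATP2B3, and replicate 1 is the highest of both groups for KCNK3, CACNA1H and CLCN2 and the lowest of both for AGTR1, CACNA1D and KCNJ5.

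RefSeq promoters (GRCh38.p14) were given for 6 of the 9 genes, in 7 entries, and not for AGTR1, CACNA1H and KCNK9. The stretches just before the start site are shown for the 3 of them whose level differed in at least one fit, KCNK3 (chr2:26692572-26692689), ATP2B3 (chrX:153517492-153517641) and CACNA1D (chr3:53494461-53494610), all on the plus strand and written 5′ to 3′. Capitals mark the GC box GGGCGG on either strand, the core of the sites bound by Sp1-type factors.

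KCNK3: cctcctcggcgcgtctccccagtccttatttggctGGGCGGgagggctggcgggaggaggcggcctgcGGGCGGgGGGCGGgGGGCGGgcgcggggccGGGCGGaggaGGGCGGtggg

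ATP2B3: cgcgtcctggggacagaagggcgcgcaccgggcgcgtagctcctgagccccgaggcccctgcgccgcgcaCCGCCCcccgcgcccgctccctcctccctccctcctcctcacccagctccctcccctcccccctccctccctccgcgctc

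CACNA1D: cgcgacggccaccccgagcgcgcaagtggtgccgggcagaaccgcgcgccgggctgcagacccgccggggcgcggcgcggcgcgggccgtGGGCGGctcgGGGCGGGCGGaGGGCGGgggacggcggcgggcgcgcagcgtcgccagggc

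These stretches held 6, 1 and 4 GC boxes, overlapping matches counted separately. In the 250 bases before the start, 5 of the 7 entries had at least 1 GC box, against 42.6% of all 35116 promoters, and both entries of KCNK2 had none. Those 5 entries held 75.2 to 83.2% G and C in these bases, against a median of 58% over all promoters. The part of this base composition in the GC box matches was not tested. AGGTCA, the half-site of steroidogenic factor 1 and of the NR4A receptors, was found in 1 entry, that of CACNA1D (12.1% of all promoters). TGACG, the core of the cAMP response element, was found in 1, that of KCNJ5 (21.2%), and TATAAA in 0 (10.7%). Both strands were searched for each. GC boxes stood before genes called higher (KCNK3, ATP2B3), lower (CACNA1D) and in neither fit (KCNJ5, CLCN2).

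AGTR1 encodes the Gq-coupled receptor through which angiotensin II raises calcium in the zona glomerulosa (chr3:148697784-148743008, plus strand, hg38). It had 324, 513 and 523 counts in the H295R-labelled libraries and 733, 734 and 703 in the H295R-PM-Ptc+-labelled libraries. These are 13.6, 20.2 and 21.2 against 28.7, 29.5 and 30.4 CPM. The groups did not overlap, and the widest departure was that of H295R replicate 1, which lay well below its 2 fellow libraries. The means were 18.3 ± 4.14 and 29.5 ± 0.846 CPM (SD, n = 3), a log2 fold change of 0.69 (standard error 0.15, 95% interval 0.35 to 1.03, edgeR adjusted p = 0.0412). With the replicate block it was 0.70 (standard error 0.0903, adjusted p = 3.88e-05). The 3 same-numbered pairs differed by 1.08, 0.55 and 0.52 on the log2 scale, so the pair with the low library contributed most. Without that library the log2 fold change was 0.51 with an adjusted p of 0.0091, and leaving out any of the other 5 took the adjusted p above 0.05, up to 0.149. AGTR2, the other angiotensin receptor gene, had no counts in any library.

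Among the tested genes, those most like AGTR1 across the 6 libraries by log2 CPM were CLU (Pearson r = 0.998), the clone-named gene AC005618.6 (r = 0.995) and SCG3 (r = 0.995, all n = 6). CLU encodes the secreted chaperone clusterin and SCG3 the granule protein secretogranin III. These correlations describe libraries that share group, replicate number and scaling. Their own log2 fold changes were 0.53 (adjusted p = 0.0412), 0.79 (adjusted p = 0.248) and 1.09 (adjusted p = 0.0545) in the edgeR fit.

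KCNJ5 encodes GIRK4, the inwardly rectifying potassium channel most often mutated in aldosterone-producing adenomas (chr11:128891356-128921035, plus strand). Its level was 107, 117 and 124 CPM in the H295R-labelled libraries and 113, 119 and 130 CPM in the H295R-PM-Ptc+-labelled libraries. The groups overlapped, and in both replicate 1 was lowest and replicate 3 highest. The means were 116 ± 8.57 and 121 ± 8.32 CPM, and the log2 fold change was 0.06 with a 95% interval of -0.14 to 0.25 (edgeR adjusted p = 0.8), narrowing to -0.03 to 0.15 with the block (adjusted p = 0.37). KCNJ5 made up 24.7 ± 1.47% and 26.8 ± 1.5% of the length-scaled level of the 16 inward rectifier genes, second to KCNJ8, the pore of ATP-sensitive potassium channels in vessels, at 65.4% and 62.7%.

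KCNK3 encodes TASK-1, an acid-sensitive background potassium channel that helps hold the resting voltage of glomerulosa cells (chr2:26692690-26733420, plus strand). Its level was 593, 529 and 568 CPM in the H295R-labelled libraries and 724, 688 and 711 CPM in the H295R-PM-Ptc+-labelled libraries. All 3 of the latter lay above all 3 of the former, and the same-numbered pairs differed by 0.29, 0.38 and 0.32 on the log2 scale. The means were 563 ± 32.1 and 708 ± 18.2 CPM, a 1.26-fold difference (log2 fold change 0.33, standard error 0.0773, 95% interval 0.15 to 0.50). The edgeR adjusted p of 0.0546 missed the threshold, and with the replicate block the same difference had a standard error of 0.0425 and an adjusted p of 3.9e-05. The call also passed with DESeq2 (adjusted p = 0.00835) and limma-voom (adjusted p = 0.0474), and edgeR fits without single libraries gave 0.0298 to 0.205, below 0.05 only without H295R replicate 1. KCNK3 held 80.6 ± 0.431% of the length-scaled level of the 15 two-pore-domain (K2P) potassium channel genes in the H295R-labelled libraries and 85.2 ± 0.668% in the H295R-PM-Ptc+-labelled libraries, a difference of 4.63 percentage points with no overlap (exact two-sided permutation p = 0.1, the smallest that 3 against 3 allows).

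KCNK2 encodes TREK-1, a background potassium channel gated by stretch and lipids and inhibited through angiotensin II in adrenocortical cells (chr1:215005775-215237093, plus strand). Its level was 19, 21.3 and 20.1 CPM against 20.1, 17.8 and 18.4 CPM. The groups overlapped and the pairs differed in sign (0.08, -0.26 and -0.13 on the log2 scale), with a log2 fold change of -0.10, a 95% interval of -0.31 to 0.10 and an edgeR adjusted p of 0.642. Leaving out single libraries gave log2 fold changes of -0.16 to -0.06. KCNK9, which encodes TASK-3, a close relative of TASK-1 and abundant in the glomerulosa of rodents, was barely expressed (chr8:139600838-139703056, minus strand). It had 27, 22 and 11 counts in the H295R-labelled libraries and 13, 11 and 20 in the H295R-PM-Ptc+-labelled libraries. The groups overlapped, and the interval of -1.33 to 0.46 around its log2 fold change of -0.43 (adjusted p = 0.653) is wide, so that a difference within it was not detectable at this depth. It was -0.13 without H295R replicate 1 and -0.77 without H295R-PM-Ptc+ replicate 3. As shares of the K2P genes, KCNK2 held 4.6% and 3.59% and KCNK1 11.1% and 8.16%, so that KCNK3 was far above every other channel of its family in each library.

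**Figure D2:**
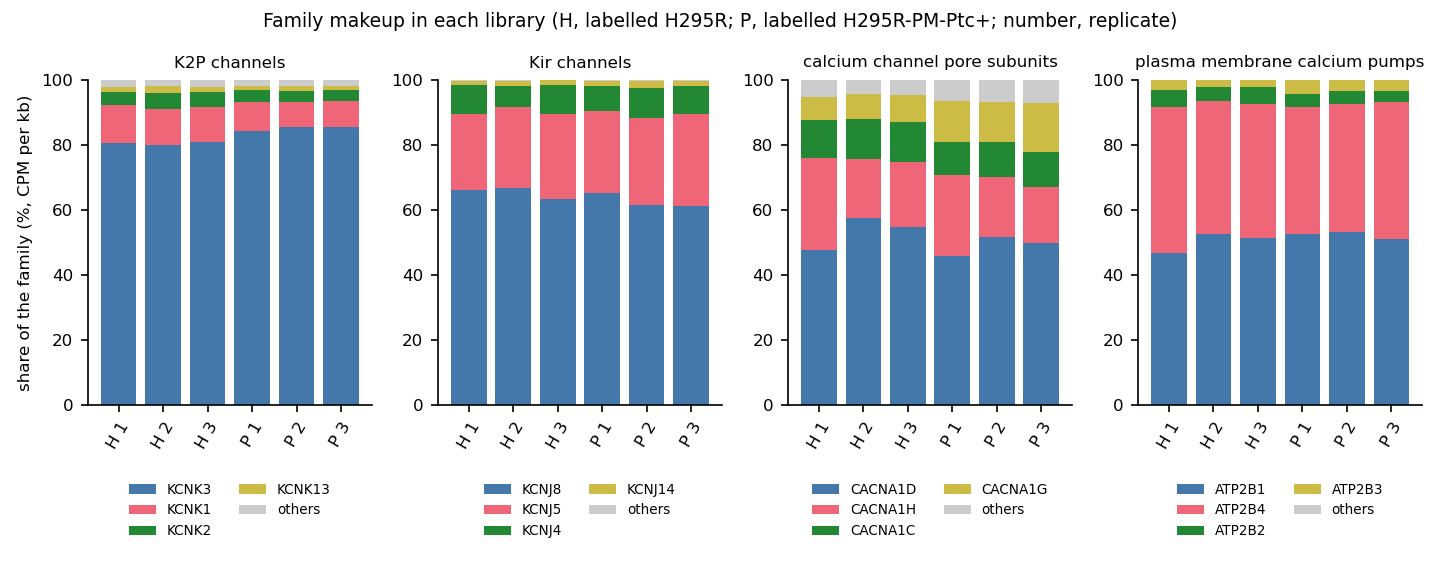
Share (%) of each gene in the summed CPM per kb of its family, with 1 stacked bar per library (H, labelled H295R; P, labelled H295R-PM-Ptc+; the number is the replicate) and the 4 most abundant genes of each family coloured. KCNK3 fills 80.6% and 85.2% of the K2P bars on average, and CACNA1G takes a wider band of the calcium channel bars labelled P (13.2%) than of those labelled H (7.83%).

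CACNA1D encodes Cav1.3, an L-type calcium channel that opens at fairly negative voltages (chr3:53494656-53813733, plus strand). Its level was 107, 127 and 123 CPM in the H295R-labelled libraries and 84.4, 106 and 108 CPM in the H295R-PM-Ptc+-labelled libraries. The groups overlapped, because replicate 1 was the lowest of each, while every same-numbered pair was lower in the H295R-PM-Ptc+-labelled library (-0.34, -0.26 and -0.18 on the log2 scale). The means were 119 ± 10.5 and 99.6 ± 13.2 CPM, a log2 fold change of -0.26 (standard error 0.112) that did not pass edgeR without the block (adjusted p = 0.283) and passed with it (standard error 0.0471, 95% interval -0.36 to -0.16, adjusted p = 0.000859). Leaving out the lowest library, H295R-PM-Ptc+ replicate 1, took the log2 fold change without the block to -0.16. CACNA1D shares 1399 bases with CHDH on the opposite strand, a gene with 4 to 11 counts here.

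CACNA1H encodes Cav3.2, the T-type calcium channel through which glomerulosa cells oscillate in voltage (chr16:1153241-1221771, plus strand). Its level was 50.5, 31.3 and 36.2 CPM in the H295R-labelled libraries and 36.1, 30.2 and 29.3 CPM in the H295R-PM-Ptc+-labelled libraries. Replicate 1 stood above the other 2 replicates in both groups, most clearly in the H295R-labelled libraries, and the groups overlapped. The log2 fold change was -0.30 (95% interval -0.68 to 0.07, edgeR adjusted p = 0.407), and with the block -0.29 (95% interval -0.44 to -0.14, adjusted p = 0.00879). Its same-numbered pairs differed by -0.48, -0.05 and -0.31. It shares 121 bases with TPSG1 on the opposite strand, which had at most 1 count. Without the library labelled H295R replicate 1 the log2 fold change was -0.08 in the fit without the block. Of the length-scaled level of the 10 pore subunit genes, CACNA1D held 53.4 ± 5.09% and 49.2 ± 2.89% and CACNA1H 22.2 ± 5.47% and 20.1 ± 4.12%, with overlap between the groups (exact unpaired permutation p = 0.3 and 0.6). By same-numbered pairs the share of CACNA1D was lower in all 3 (47.8 and 46%, 57.7 and 51.7%, 54.7 and 50%), which was not tested.

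ATP2B3 encodes PMCA3, a plasma membrane pump that exports calcium (chrX:153517676-153582939, plus strand). It had 168, 156 and 166 counts in the H295R-labelled libraries and 226, 243 and 219 in the H295R-PM-Ptc+-labelled libraries, or 7.03, 6.14 and 6.72 against 8.84, 9.77 and 9.46 CPM. The groups did not overlap, and the libraries within each lay close together. The means were 6.63 ± 0.451 and 9.36 ± 0.475 CPM, a log2 fold change of 0.50 (standard error 0.113, 95% interval 0.24 to 0.75, edgeR adjusted p = 0.0483), and the adjusted p was 0.00307 with the block. The call lies at the threshold, since requiring at least 10 counts in every library gave 0.0552 and leaving out single libraries 0.036 to 0.181, below 0.05 only without the library labelled H295R replicate 1. ATP2B3 held 2.52 ± 0.587% and 3.64 ± 0.491% of the length-scaled level of the 4 plasma membrane calcium pump genes, and ATP2B2 4.91 ± 0.398% and 3.83 ± 0.357%, with ATP2B3 above ATP2B2 in H295R-PM-Ptc+ replicate 1 (4.21% and 3.93%), while the widely expressed ATP2B1 and ATP2B4 held 50.4% and 42.2% in the H295R-labelled libraries and 52.3% and 40.3% in the H295R-PM-Ptc+-labelled libraries.

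CLCN2 encodes ClC-2, a chloride channel opened by hyperpolarization whose activation depolarizes glomerulosa cells (chr3:184346185-184361651, minus strand). Its level was 18.2, 11.9 and 12.8 CPM in the H295R-labelled libraries and 17.5, 13.7 and 13.8 CPM in the H295R-PM-Ptc+-labelled libraries. As for CACNA1H, replicate 1 was the highest of each group, at 1.47 and 1.28 times the mean of the others, and the groups overlapped. The log2 fold change was 0.07 with a 95% interval of -0.32 to 0.46 (edgeR adjusted p = 0.898), and -0.10 to 0.25 with the block (adjusted p = 0.562). CLCN2 held 8.36% and 8.07% of the length-scaled level of the 9 CLC genes, below CLCN7, CLCN3 and CLCN4 in every library. Its order against CLCN6 and CLCN5 changed with the library, since it lay above CLCN5 in replicate 1 of both groups and below it in replicates 2 and 3. It shares 91 bases with FAM131A on the opposite strand, which had 265 to 355 counts.

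**Figure D3:**
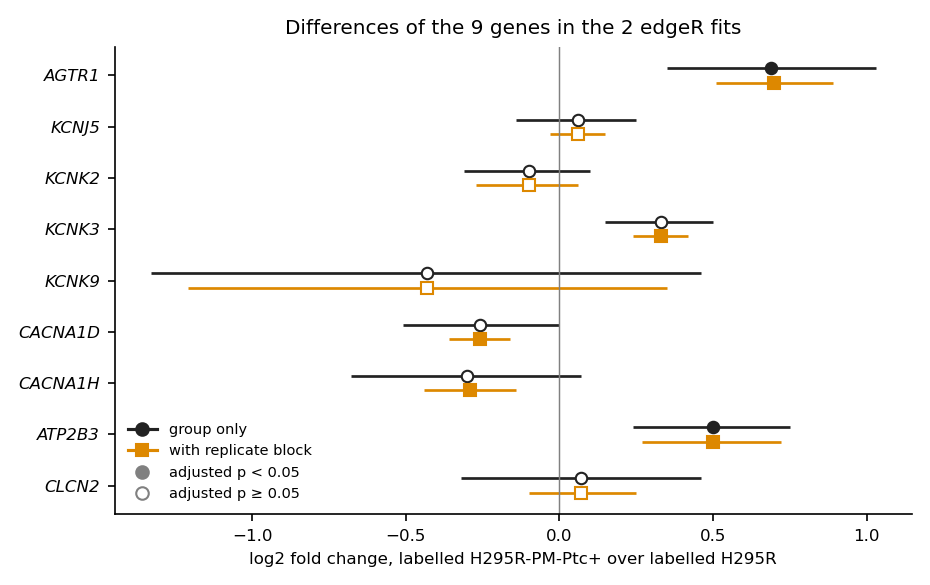
Log2 fold change of each gene (x axis, H295R-PM-Ptc+-labelled over H295R-labelled libraries) with its 95% interval, from edgeR with group only (black circles) and with the replicate number as a block (orange squares). Filled symbols have an adjusted p under 0.05, which AGTR1 and ATP2B3 reach in both fits and KCNK3, CACNA1D and CACNA1H with the block, whose intervals are narrower.

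Set against all genes, 2 of 9 were called, 2 of them higher and 0 lower, where edgeR called 3.73% of the 16710 tested genes, 2.42% as higher and 1.32% as lower. At an unadjusted edgeR p under 0.05, 3 were higher and 1 lower (CACNA1D), against 9.6% and 7.67% of all tested genes. DESeq2 and limma-voom each called 3 higher and 0 lower, where they called 2.81% and 2.36% of all genes they tested as higher and 1.75% and 1.28% as lower. With the replicate block 5 of 9 were called, 3 higher and 2 lower, where 22.5% of all tested genes were called, 12.1% as higher and 10.4% as lower. The CPM of the groups did not overlap for 3 of 9, against 23.5% of all tested genes. The log2 fold change was above 0 in 5 and below 0 in 4, with a median of 0.06 beside 0.00 over all tested genes, and for 6 of 9 all 3 same-numbered pairs differed in 1 direction, as they did for 52.6% of all tested genes.

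Medians over neighbouring genes were small beside the differences of the called genes. The window of 50 tested genes around AGTR1, in order of start on its chromosome, had a median log2 fold change of -0.02, with 19 of 50 above 0. Such windows can be long, from 151176653 to 154436516 around ATP2B3 and from 589357 to 32255922 around CACNA1H. The median was 0.01 around ATP2B3, 0.07 around KCNK3 (35 of 50 above 0), -0.07 around CACNA1D (20 of 50 above 0) and 0.01 around CACNA1H. For the other 4 genes it lay between -0.06 and 0.01.

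The 8 lists of other genes of these families and of the aldosterone pathway held 123 genes, of which 84 were tested. Without the block 1 was called higher and 0 lower, where 2.42% and 1.32% of all tested genes were. With the block 18 were called higher and 12 lower, where 12.1% and 10.4% of all tested genes were. The median log2 fold change of the 84 was 0.04. At an unadjusted edgeR p under 0.05, 12 were higher and 11 lower, against 9.6% and 7.67% of all tested genes. DESeq2 called 3 higher and 0 lower and limma-voom 1 and 0. The shares of all tested genes given here are also the background for the single lists below. The call in both fits was CACNA1G, which encodes the T-type channel Cav3.1, at 15.9 ± 1.17 CPM in the H295R-labelled libraries and 24.4 ± 4.39 CPM in the H295R-PM-Ptc+-labelled libraries (log2 fold change 0.62, edgeR adjusted p = 0.0392, with the block 2.51e-05). Without the block, that call held in 1 of the 6 fits that left out a library, the one without H295R-PM-Ptc+ replicate 1. Its share of the pore subunits was 7.83 ± 0.56% and 13.2 ± 1.46%, without overlap (exact permutation p = 0.1). Of the 11 tested voltage-gated calcium channel genes, 3 were called higher and 3 lower with the block.

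Of the 5 other K2P genes tested, edgeR called 0 without the block (1 higher and 1 lower at an unadjusted p under 0.05), and 1 was higher and 1 lower with it. DESeq2 and limma-voom called 0 of the K2P, inward rectifier, pump, CLC, Gq and aldosterone output genes. KCNK5, the alkaline-activated TASK-2, stood at 0.38 on the log2 scale (adjusted p = 0.162, with the block 0.0252) and KCNK13 at -0.36 (adjusted p = 0.23, with the block 0.0544). None of the 3 inward rectifier genes tested was called in either fit by edgeR or had an unadjusted p under 0.05, with KCNJ14 at 0.32 (adjusted p = 0.391, and 0.15 without H295R-PM-Ptc+ replicate 2) and KCNJ8 at -0.12 (adjusted p = 0.437). Of 12 pump genes, 0 were called without the block (0 higher and 2 lower at an unadjusted p under 0.05), and 1 was higher and 2 lower with it, the latter being ATP1B2, a sodium pump subunit (-0.33, adjusted p = 0.181, with the block 0.00163, and -0.19 without H295R replicate 1), and ATP2B2, another calcium pump (-0.41, adjusted p = 0.229, with the block 0.0049). Of 7 CLC genes, 3 were higher at an unadjusted p under 0.05 and with the block, among them the endosomal exchanger gene CLCN4 (0.22, adjusted p = 0.163, with the block 0.00996).

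Among the other genes of the angiotensin system, ACE, which encodes the enzyme that makes angiotensin II, had at most 2 counts in any library and MAS1 none. Of the 6 genes tested, edgeR called 2 higher with the block and 0 without it, where 1 had an unadjusted p under 0.05 and DESeq2 called 1, both times MME. MME, which encodes the peptidase neprilysin, stood at 766 ± 59.9 and 964 ± 40.2 CPM (log2 fold change 0.33, edgeR adjusted p = 0.0733, with the block 0.000365). AGT, the angiotensinogen gene, was at 0.71 on that scale (adjusted p = 0.485, and 0.00245 with the block). Its replicate 1 was 2.77 and 2.20 times the mean of the others in the 2 groups, and the part of this in the gap between the fits was not tested. Without the block its log2 fold change was 1.37 when H295R replicate 1 was left out and 0.21 when H295R-PM-Ptc+ replicate 1 was.

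Downstream of the receptor, 0 of the 25 tested genes of Gq and calcium signalling were called by edgeR without the block (2 higher and 1 lower at an unadjusted p under 0.05), and 6 higher and 1 lower with it. CAMK2B (0.54, adjusted p = 0.0782, with the block 0.00444) and CAMK4 (0.65, adjusted p = 0.255, with the block 0.0256) encode calcium and calmodulin-dependent kinases. The gene called lower with the block was GNAQ, which encodes the Gq alpha subunit that couples to the receptor (-0.37, adjusted p = 0.258, with the block 2.22e-05), named after its values were seen. Of the 15 tested genes of aldosterone output and the zona glomerulosa, edgeR called 0 without the block (2 higher and 4 lower at an unadjusted p under 0.05), and 2 were higher and 5 lower with it, with a median log2 fold change of -0.12. Over all tested genes, 9.6% were higher and 7.67% lower at an unadjusted edgeR p under 0.05, and 12.1% and 10.4% were called with the block. NEFM, a neurofilament gene known as a glomerulosa marker, was at -0.35 (adjusted p = 0.112, with the block 0.000581). NR4A1, a transcription factor induced by angiotensin II, was at -0.26 (adjusted p = 0.191, with the block 0.00854). The output gene CYP11B2 itself had 3 to 13 counts in the H295R-labelled libraries and 10 to 22 in the H295R-PM-Ptc+-labelled libraries (log2 fold change 0.93, adjusted p = 0.358, with the block 0.113), and was named after its values were seen. Its near-identical copy CYP11B1 had at most 3 counts, and reads could be split between them.

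**Figure D4:**
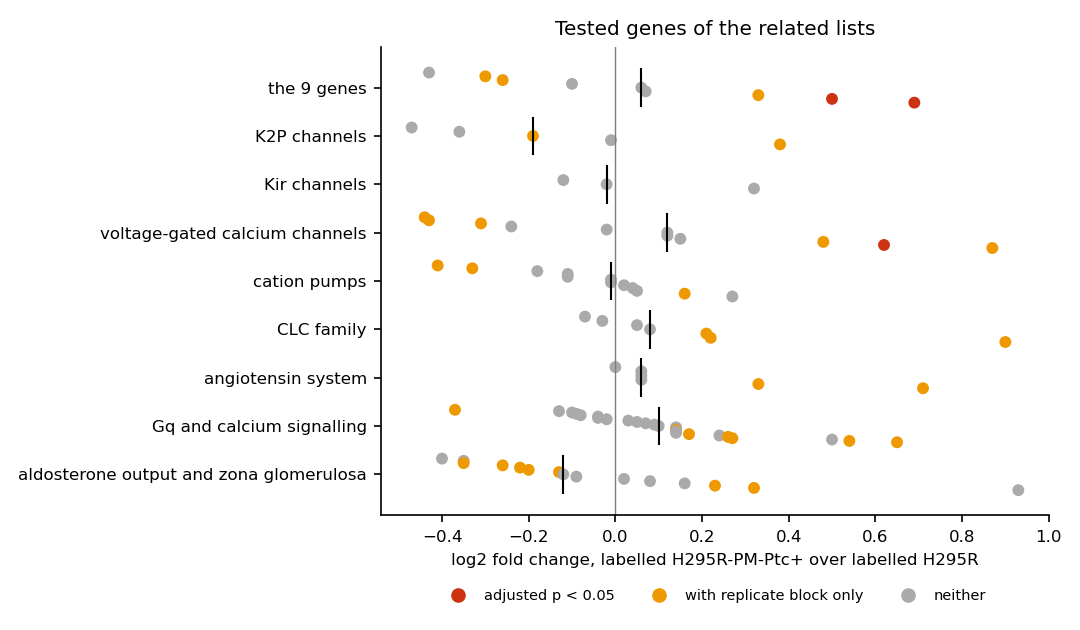
Log2 fold change (x axis, H295R-PM-Ptc+-labelled over H295R-labelled libraries) of the 9 genes and of the 84 tested genes of the 8 related lists, 1 point per gene. Red points have an edgeR adjusted p under 0.05 without the block, orange points only with it, and black lines are the medians, which lie between -0.19 (K2P channels) and 0.12 (voltage-gated calcium channels).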

How the data were processed

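The authors aligned paired reads from stranded libraries to hg38 with STAR 2.4.0a and summed fragments over the exons of each gene name (featureCounts, Ensembl genes), multiply mapped reads being kept at their primary position and strand option 1 being set. Both the methods and the labels name a TruSeq Stranded kit, for which the opposite option is usual, yet GAPDH had 77733 to 86145 counts and ACTB 48309 to 65248. The orientation of the reads was not tested, and counts of genes that overlap on opposite strands are less certain. They deposited raw counts for 6 libraries (23264403 to 25813247 each), which were used unchanged. The study's methods name an mRNA kit and the labels a total RNA kit, and the Subread versions they name differ (1.5.0-p3 in the submitters' processing notes). Of the table, 1 row without a gene name held 0 counts and was left out.

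Groups and replicate numbers were taken from the labels. Counts were TMM-normalised and tested on the whole table with edgeR 4.0.16 in R 4.3.3 (filterByExpr, then the quasi-likelihood F-test, two-sided, with no term but group), with Benjamini-Hochberg adjustment over the 16710 genes tested, which held 99.9% of the counts. Standard errors and 95% intervals come from the same fit. CPM uses TMM-scaled library sizes, and levels per kb divide CPM by the exon length in the deposited table. Same-numbered replicates pair the groups, since deviations of log2 CPM from the group means correlated across genes at 0.497, 0.307 and 0.228 for the same number and at -0.352 to 0.15 for different numbers. The alternatives were RLE size factors, no filter, at least 10 counts in every library, DESeq2 1.42.0, limma-voom (limma 3.58.1), the replicate block and leaving out each library. The edgeR fits without and with the block, DESeq2 and limma-voom were first tried on simulated counts. These held no replicate effect, so the block was not tried where replicates differ. Tables were handled in Python 3.11.15 with pandas 2.3.3 and drawn with matplotlib 3.10.9.

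Named were all 9 genes, PTCH1, from each list the called genes or else the 2 with the smallest p, and the 3 genes most like the one with the smallest p. Genes mentioned only to describe a family, a marker list or an overlap were added after their values were seen, and a few genes of the lists are not reported here. The 9 genes and the lists were chosen with earlier results of these data known. Precision rests on 3 libraries per group and, for KCNK9 with 11 to 27 counts, also on depth.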

Additional observations from a re-analysis of the deposited data

How the results depend on the processing

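The number of the 9 genes called, 2 without the block, was 1 with at least 10 counts in every library, 5 with the replicate block, and 0 to 3 when single libraries were left out (3 without the library labelled H295R replicate 1, 0 without any of the other 5). It was 2 with RLE size factors and 3 without a filter, with DESeq2 and with limma-voom. Over all genes, 624 calls became 1111 without a filter, 3758 with the replicate block (among them all 624) and 219 to 810 without single libraries. The single call in the related lists became 5 without a filter, 3 with DESeq2, 30 with the replicate block and 0 to 4 without single libraries. Of 108 alternative values of the 9 genes, 86 kept direction and side of the threshold, 7 gained and 11 lost the call, and 4 changed sign. These were KCNJ5 in the fit that left out H295R-PM-Ptc+ replicate 3 (-0.00, up to 0.10 over all such fits), and CLCN2 without H295R replicate 2 (-0.05), H295R replicate 3 (-0.02) or H295R-PM-Ptc+ replicate 1 (-0.07, up to 0.28 over all such fits). The cause of these changes was not tested, and those fits also held fewer libraries. The replicate block changed the calls of KCNK3, CACNA1D and CACNA1H and no other of the 9.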
